A study of Mus musculus with 6 samples.

Results

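The 3' untranslated region (3' UTR) is the stretch of an mRNA after its stop codon, and the eCLIP peaks placed there were examined as one set. They are the rows of the authors' deposited peak table whose transcript region is exactly 3' UTR, which gave 7537 of 55449 peaks (13.6%) in 3419 of the 10788 genes with any peak. The other peaks lay in coding sequence (20515 peaks), introns (23461), 5' UTRs (1228), annotated miRNAs (63) and other transcript regions (2645). The cells were MLTC-1, a mouse Leydig cell tumour line. Cells of all groups were exposed to 400 mJ per cm2 of ultraviolet light at 254 nm. The immunoprecipitation (IP) started from 20 ug of RNA whose integrity number was 8.35. An antibody against ZFP36L2 gave 2 IP libraries with 2 inputs, and rabbit IgG, the negative control antibody, gave 1 IP library with 1 input. The labels name no genetic change, drug or time course, and they do not say whether the libraries came from separate cultures.

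ZFP36L2 belongs to a small family of CCCH zinc finger proteins that bind AU-rich elements, short sequences found mostly in the 3' UTRs of unstable mRNAs. The bound protein recruits the CCR4-NOT deadenylase, which shortens the poly(A) tail, and the mRNA is then decapped and degraded. In steroid-making cells the related protein ZFP36L1 is known for acting on Star mRNA, which encodes the protein that carries cholesterol into mitochondria for steroid synthesis. In eCLIP, ultraviolet light joins proteins to the RNA they touch, the antibody recovers them, and the attached RNA fragments are sequenced.

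Every log2 fold change, p and adjusted p given for a peak is the authors' own value from the deposited table, and positions are on genome build mm10. The direction of the fold change, ZFP36L2 over IgG, is taken from the table's name alone. No header states it, and if it ran the other way, enriched and depleted would change places throughout. The table holds 0 columns that name a library, so the level in each library, the depth behind a peak and the error of a fold change are unknown. The IgG arm has 1 IP library, so a peak's difference from IgG cannot be told apart from a difference from that library. Calls required an adjusted p under 0.05. Enriched peaks also had a log2 value of at least 1, and depleted peaks a value of at most -1. No 3' UTR peak passed the adjusted p with a smaller fold change. Called 3' UTR peaks reached an adjusted p of 0.049, and those not called began at 0.05. No 3' UTR peak with a value of 3 or more was left uncalled, against 35 with a value of -3 or less.

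The labelled cell type was checked against marker genes with a peak in any region. Of 10 Leydig cell markers, 7 had peaks, with 35 in Cyp11a1, 20 in Prlr, 16 in Lhcgr and 3 in Star, while Cyp17a1, Hsd3b1 and Insl3 had none. Markers of Sertoli cells (1 of 6) and germ cells (1 of 6) had few peaks. All 6 macrophage markers had peaks, 31 in all. All 8 cardiac muscle markers also had peaks, 765 in all, of which 566 lay in Ttn (titin), 117 in Ryr2 (the cardiac calcium release channel) and 44 in Myh6 (alpha myosin heavy chain). The smallest number in a cardiac marker was 5, in Myl2. A peak is no measure of the level of an RNA, and the part of these transcripts in the results was not tested.

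Depleted 3' UTR peaks outnumbered enriched ones in the authors' deposited table. There were 110 enriched 3' UTR peaks, 1.46% of the set, beside 2.22% of all peaks. The share was 2.35% in coding sequence, 2.17% in introns and 3.18% in 5' UTRs. There were 364 depleted 3' UTR peaks, 4.83% of the set, beside 5.44% of all peaks, 3.74% in coding sequence and 7.04% in introns. The share of enriched peaks was thus lower in 3' UTRs than in each of these 3 regions, and the share of depleted peaks lay between those of coding sequence and introns. Peaks of 1 gene share their transcript, so no test was made over peaks. At the level of genes, 75 of the 3419 genes (2.19%) had an enriched 3' UTR peak and 284 (8.31%) had a depleted one. Over all peaks, 544 of 10788 genes had an enriched peak and 1853 a depleted one. In coding sequence the counts were 286 and 546 of 6207 genes. Mean peaks per gene differed too, with 2.2 in 3' UTRs, 3.31 in coding sequence and 5.14 over all peaks.

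The median log2 fold change of 3' UTR peaks was -1.08 (interquartile range -1.87 to -0.16, over peaks). The median over all peaks was -1.06, so 3' UTR values lay close to the centre of the table. Coding peaks were higher, with a median of -0.72, intron peaks were lower at -1.31, and 5' UTR peaks were at -1.07. Values above 0 made up 21.4% of 3' UTR peaks, 29.7% of coding peaks and 19.5% of intron peaks. Since the whole table is centred below 0, a split by fold change alone depends on the zero point. At a cut of 3 on the log2 scale with no p, 68 3' UTR peaks were higher and 344 lower as deposited (16.5% higher). After subtracting the median of all peaks, 141 were higher and 41 lower (77.5% higher). The split of called peaks, 23.2% of them enriched, was 23.3% enriched after that centring. The deposited adjusted p was kept for this, so no uncalled 3' UTR peak could gain a call. The value therefore cannot show whether the split of called peaks depends on the zero point.

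**Figure D1:**
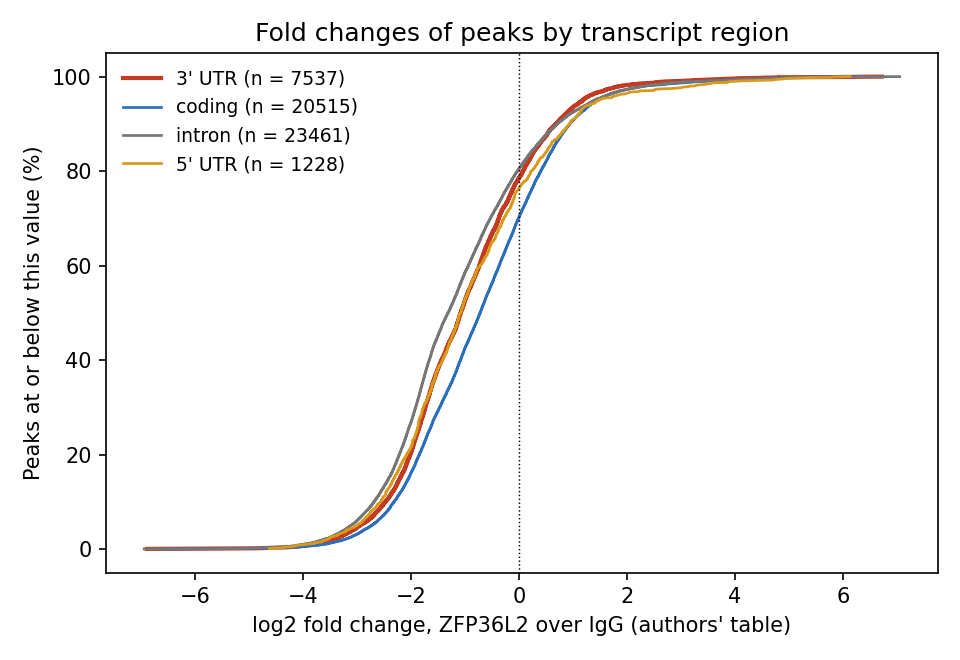
Cumulative share of peaks (%, vertical axis) at or below each log2 fold change of ZFP36L2 over IgG (horizontal axis) for 3' UTR, coding, intron and 5' UTR peaks; each line is 1 region and each peak counts once. The 3' UTR line runs close to the 5' UTR line (medians -1.08 and -1.07), between intron peaks on the left and coding peaks on the right.

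Within genes that had peaks in both places, the 3' UTR was compared with coding sequence or introns of the same gene by the gene's median. Against coding sequence, 2129 genes gave a median difference of -0.21, and the 3' UTR was higher in 42.9% of them and lower in 56.7%. Against introns, 1808 genes gave a median difference of 0.20, with the 3' UTR higher in 56.4%. Across genes, the medians of 3' UTR and coding peaks correlated with a Pearson r of 0.28 and those of 3' UTR and intron peaks with 0.19. These are correlations over genes that share the same libraries, and genes are not replicates. Both correlations were weak. They rest on gene medians whose error is unknown, so how closely the regions of 1 gene are related was not tested.

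The largest fold change of any 3' UTR peak was in Sec63, which encodes a membrane protein of the endoplasmic reticulum that takes part in moving new proteins across it. Its single 3' UTR peak spanned 50 bases of chromosome 10 (42829118 to 42829167) and stood at 6.72 on the log2 scale (adjusted p 2.6e-23). None of its 4 peaks in coding sequence and introns was enriched, and their values ran from -4.65 to 0.20. Bsg, which encodes the membrane glycoprotein basigin, had 3 peaks within 118 bases on chromosome 10. The first (79711818 to 79711874) stood at 6.22 on the log2 scale (adjusted p 6.5e-26), and the peaks 7 bases on and beyond had 1.37 and -0.03, neither called. The Bsg signal was thus held by 57 bases at the upstream end of this cluster.

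Eif4ebp2 held more enriched 3' UTR peaks than any other gene. It encodes a repressor of translation that binds the cap-binding protein eIF4E. Of its 12 3' UTR peaks, 11 were enriched, with log2 fold changes from 3.56 to 5.98. The twelfth had 1.85 with an adjusted p of 0.055, and it touched a peak with 3.77. The peaks spread over 2207 bases of chromosome 10 and covered 623 of them. The smallest adjusted p, 3.6e-29, belonged to the 101 bases at 61430815 to 61430915 with a log2 fold change of 5.98. None of the 4 intron peaks of Eif4ebp2 was called, and they ran from -2.55 to -0.01. The enriched peaks of this gene were thus all in its 3' UTR.

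Peak1, which encodes a pseudokinase of the actin cytoskeleton, was the only gene besides Cox8a with several 3' UTR peaks that were all enriched. Its 6 peaks had log2 fold changes of 2.65 to 4.26 over 2078 bases of chromosome 9, and 4 of its 15 peaks outside the 3' UTR were enriched too. Hipk2, which encodes a nuclear serine/threonine kinase, had 4 enriched 3' UTR peaks of 6. A pair 181 bases apart reached 6.44 (adjusted p 1.5e-27, 38695757 to 38695811 on chromosome 6) and 6.30, and the flanking called peaks had 4.14 and 2.70. Between the peak at 4.14 and that pair lay touching peaks at 0.76 and -0.95 that were not called, so the enriched stretches of Hipk2 were interrupted. Cox8a, which encodes a subunit of cytochrome c oxidase, had 2 touching enriched peaks with 3.38 and 4.09, while its 2 peaks in the 5' UTR were at -2.05 and -1.97.

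**Figure D2:**
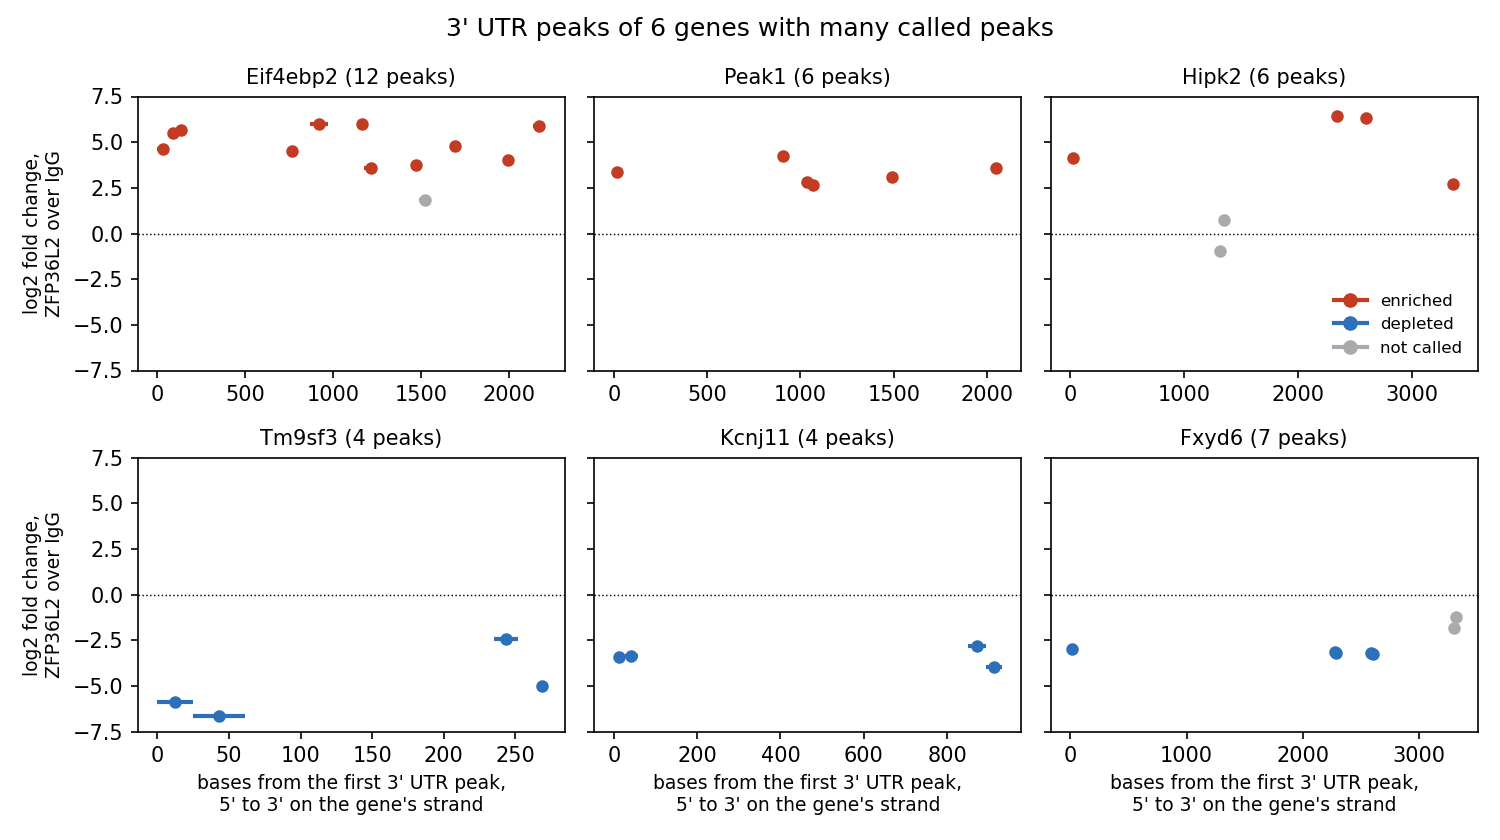
Log2 fold change of ZFP36L2 over IgG (vertical axis) of each 3' UTR peak by its distance in genomic bases from the gene's first 3' UTR peak (horizontal axis, on the gene's strand) in 6 genes with many called peaks; a bar spans each peak, a dot marks its middle and colours mark the call. All peaks of Eif4ebp2 and Peak1 lie above 0, those of Hipk2 are interrupted by a pair near 0, and all peaks of Tm9sf3, Kcnj11 and Fxyd6 lie below 0.

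Most other genes with an enriched 3' UTR peak had it in 1 place. Of the 75 genes, 57 had 1 enriched peak, 13 had 2 and 5 had 3 or more (Eif4ebp2, Peak1, Hipk2, Hspb7 and Fbn1). These 5 genes held 27 of the 110 enriched peaks (24.5%). Fbn1, which encodes fibrillin-1 of extracellular microfibrils, had 3 enriched peaks of 4, at 2.55, 2.96 and 3.65. Arhgap35, which encodes a GTPase-activating protein, had 4.83 at 1 of 4 peaks, and the other 3 ran from -1.94 to -0.41. Tns1, which encodes the focal adhesion protein tensin, had 4.83 and 2.33 at 2 of 8 peaks that lay over 1000 bases apart. Prrc2b had 4.76 at the first of 7 peaks, and the next peak, 25 bases on, had -0.95. Dpysl3 had 4.03 over 109 bases at the downstream end of 6 peaks, and the other 5 ran from -0.52 to 0.63. Slc25a11, the mitochondrial 2-oxoglutarate carrier, had 4.66 at 54 bases, and the touching peak had 2.60 with an adjusted p of 0.051. That value was the highest of any 3' UTR peak that was not called.

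Jakmip3 had 4.06 (adjusted p 4.6e-11) at a peak 15687 bases upstream of the next 3' UTR peak and 17942 bases before the RefSeq gene end. The remaining 3 peaks ran from -1.77 to -0.36. Zbtb20, which encodes a zinc finger transcription repressor, had 23 3' UTR peaks over 20593 bases, and the only enriched one (4.14) was the farthest downstream, beyond the end of the RefSeq gene.

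Of the genes with both several 3' UTR peaks and a call, the peaks that were not called differed by direction. In genes with an enriched peak, 249 further 3' UTR peaks had a median of -0.03, and 49% of them were above 0. In genes with a depleted peak, 444 further peaks had a median of -1.47, and 87.2% were below 0. The 5077 peaks of genes with several 3' UTR peaks and no call had a median of -1.03, with 20.7% above 0 and 79.1% below 0. A call chosen in a gene and its other peaks come from the same libraries, so these values are given as a description.

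The lowest log2 fold changes belonged to Pde5a, which encodes the phosphodiesterase that breaks down cyclic GMP. Its 2 touching 3' UTR peaks on chromosome 3, at 122856115 to 122856178 together, had -6.65 and -6.89 (adjusted p 1.7e-30 and 3.4e-29). Its 4 intron peaks ran from -0.93 to -0.23 and were not called. Tm9sf3, which encodes a multi-span membrane protein of the secretory pathway, had 4 depleted 3' UTR peaks of 4, at -6.62, -5.88, -5.02 and -2.45, and 7 of its 9 peaks elsewhere were depleted too. Pde5a was thus low in 64 bases of its 3' UTR alone among its measured regions, and Tm9sf3 was low in other regions as well. Art1, which encodes an ADP-ribosyltransferase of muscle, had -6.32 and -2.38 at touching peaks, with 5 of 6 coding peaks depleted.

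Sgcb, which encodes beta-sarcoglycan of the dystrophin complex, had -5.30 and -4.15 at touching peaks, and another peak 1071 bases downstream had -1.20 and was not called. Pias4, a SUMO ligase, had -5.26 over 12 bases, and the touching 40 bases had -1.53 with an adjusted p of 1. Eif4g2, which encodes a translation initiation factor of the eIF4G family, had -4.97 and -3.53 at touching peaks, and a peak 2561 bases upstream had 0.76. Its 11 coding peaks ran from -0.01 to 1.32. Zfp651 (-4.87 and -3.90) and Loxl3 (-4.86 and -4.02), a lysyl oxidase-like enzyme of the extracellular matrix, each had a touching depleted pair beside peaks that were not called. In 5 of these 8 genes, at least 1 other 3' UTR peak of the gene was not called.

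By adjusted p, the depleted genes also included Klhdc3 (-4.56 and -3.86), Sart3, a factor of spliceosome assembly (-4.46 and -4.32), Sh3glb1, which encodes endophilin B1 (-4.79 and -4.08), and Slc25a47, a mitochondrial carrier (-4.20). All 7 coding peaks of Klhdc3 were depleted as well, and none of the 7 peaks of Sh3glb1 outside the 3' UTR was depleted. The genes with the most depleted 3' UTR peaks were Fxyd6 (5 of 7), Tm9sf3 (4 of 4) and Kcnj11 (4 of 4). Another 6 genes had 3 each. They were Cdk6 (3 of 7), Cmklr1 (3 of 3) and Sik1, and, named after their values were seen, Impa2, Maf1 and Sdc4. Fxyd6 encodes a regulator of the sodium pump, and its 5 depleted peaks covered 2 to 22 bases each with values from -3.28 to -3.00. Among them, the peaks of 2 and 10 bases touched, and so did those of 5 and 16 bases. Kcnj11 encodes the pore of the ATP-sensitive potassium channel, and its 4 peaks formed 2 touching pairs 792 bases apart, at -3.41 and -3.38 and at -2.81 and -3.98. The depleted peaks of Cdk6, a kinase of the G1 phase, were 3 touching peaks of 10 to 20 bases near the gene end, at -3.10, -2.79 and -3.05.

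Depleted peaks were spread over more genes than enriched ones. Of the 284 genes, 217 had 1 depleted 3' UTR peak, 58 had 2 and 9 had 3 or more, and the top 5 genes held 19 of the 364 peaks (5.22%). Among the 216 of them with several 3' UTR peaks, 31 had all peaks depleted. Among the 59 such genes with an enriched peak, 2 had all peaks enriched. Genes with just 2 3' UTR peaks were 96 of the 216 and 12 of the 59, so the groups differ in peaks per gene. Touching peaks count separately here, and 62 touching pairs were depleted in both peaks. The median of called peaks was 3.33 (interquartile range 2.65 to 4.08) for enriched and -3.34 (-3.70 to -3.12) for depleted ones.

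The 3' UTRs of 4 genes held calls in both directions. Ctsb, which encodes the lysosomal protease cathepsin B, had an enriched peak of 95 bases at the upstream end (2.77, adjusted p 9.3e-11) and another of 76 bases (2.09), and 1458 bases after the latter came a peak of -0.95 that touched a depleted one of -3.12. Parvb, which encodes the focal adhesion protein beta-parvin, began with depleted touching peaks at -3.76 and -3.25, and 1687 bases on stood an enriched peak at 3.75 (adjusted p 0.00072). Mlec, which encodes malectin of the endoplasmic reticulum, had 2.43 at the first of 11 peaks and -2.86 at a peak that began 3838 bases farther downstream. In 5031439G07Rik, 1 of 16 peaks was enriched (3.09) and 1 depleted (-3.19). Parvb held the only neighbouring 3' UTR peaks with calls in opposite directions.

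The 5 genes with the most 3' UTR peaks had 1 called peak or none each. Over all 3' UTR peaks, 1.46% were enriched and 4.83% depleted. Zbtb20, described above, had 1 enriched peak of 23 and none depleted. Slc8a1, which encodes the sodium-calcium exchanger, had 28 3' UTR peaks over 14819 bases, of which 1 was enriched (2.70, 219 bases long) and none depleted. Ppp1r12b, which encodes a regulatory subunit of myosin phosphatase, had 22 and Lpp had 21, with none called in either. Lynx1 had 17, of which 1 was depleted with a value of -4.05. The number of peaks in a 3' UTR was nonetheless related to whether a gene had any call. Of 1409 genes with 1 3' UTR peak, 1.14% had an enriched and 4.83% a depleted one. Of 157 genes with 6 or more, 14.6% had an enriched and 15.9% a depleted one. More peaks give more chances of a call. Counted per peak, the enriched share was 1.14%, 0.576%, 1.32% and 3.75% in genes with 1, 2, 3 to 5 and 6 or more peaks. The depleted share was 4.83%, 5.36%, 5.14% and 3.18%. Eif4ebp2, Peak1, Hipk2 and Hspb7, with 11, 6, 4 and 3 enriched peaks, are in the last class. The enriched share of that class without these genes was not calculated.

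**Figure D3:**
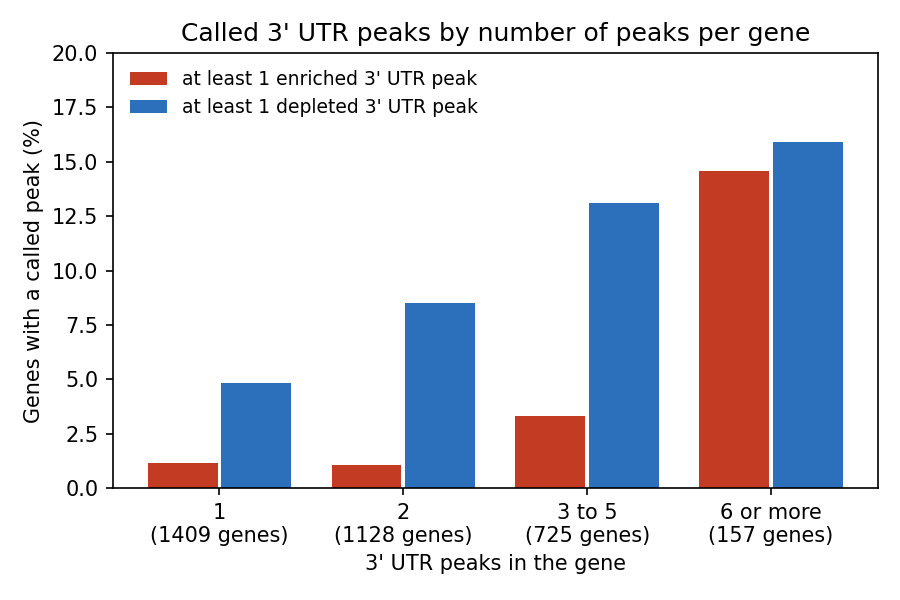
Percent of genes (vertical axis) with at least 1 enriched or at least 1 depleted 3' UTR peak, by the number of 3' UTR peaks in the gene (horizontal axis, with the number of genes in each class); bars start at 0. The enriched bar stands at 1.14% and 1.06% for 1 and 2 peaks and at 14.6% for 6 or more, while the depleted bar goes from 4.83% to 15.9%.

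The gene lists were drawn up with earlier results of these data known, and their counts are descriptions beside the 2.19% and 8.31% of all genes with a 3' UTR peak. Of 75 counted mRNAs known for AU-rich elements, 22 had a 3' UTR peak, 2 of them an enriched one and 2 a depleted one. The median of their 44 peaks was -0.92. The enriched members were Jund, which encodes a subunit of the AP-1 transcription factor (4.72, adjusted p 2e-08), and the immediate early gene Ier2 (2.99, adjusted p 7.9e-07). Jund and Ier2 had 1 3' UTR peak each, of 15 and 70 bases. The depleted members were the kinases Plk2 (-4.26 and -3.27) and Pim1 (-2.73). Members with 3' UTR peaks and no call included Ptgs2 (-2.60 and -2.36), Socs3 (-0.43 to 0.37), Nfkbia (0.91) and Ccnd1 (-2.81 to 0.36).

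Of 72 genes of mRNA decay, 28 had a 3' UTR peak, none enriched and 5 depleted, with a median of -1.41. The depleted ones were Ago3, an Argonaute protein of miRNA silencing (2 of 6 peaks, lowest -4.23), the decapping enzyme Dcp2 (-3.39), the helicase Ddx6 (-3.20), Smg5 of nonsense-mediated decay (-3.00) and Cnot9 of the CCR4-NOT complex (-2.86). Zfp36, Zfp36l1 and Zfp36l2, which belong to the family itself, had no peak in any region, so the table gives no value for them.

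The list of Leydig cell and steroid genes and that of cAMP signalling held no enriched 3' UTR peak and 5 genes with a depleted one. Star and Stard4, the cholesterol carriers among them with 3' UTR peaks, had no call. Of 34 Leydig cell and steroid genes, 7 had a 3' UTR peak, none enriched, and the 2 depleted ones (28.6% of 7) were Nr2f2, an orphan nuclear receptor (-3.96), and Pdgfra, the receptor for platelet-derived growth factor (-3.12). Star had 2 touching 3' UTR peaks of 11 and 36 bases with log2 fold changes of -0.89 and 0.00, neither called (adjusted p 1 for both). Lhcgr, the receptor for luteinizing hormone, and Cyp11a1, which starts steroid synthesis from cholesterol, had no 3' UTR peak. Of the 35 intron peaks of Cyp11a1, 33 were enriched, and the values ran from 0.73 to 5.87. Of the 16 peaks of Lhcgr, 1 was enriched and none depleted. Of 51 genes of cAMP and protein kinase A signalling, 19 had a 3' UTR peak, none enriched, and 3 (15.8%) had a depleted one. These were Sik1, a kinase that restrains CREB coactivators (3 of 7 peaks, lowest -3.88), Crtc3, such a coactivator (-3.32), and Prkar1a, a regulatory subunit of the kinase (-2.92). Of 40 counted genes of cholesterol synthesis and uptake, 10 had a 3' UTR peak, and none of these was called. Insig1, a sterol sensor of that list, had no 3' UTR peak, and its 6 peaks elsewhere were all depleted.

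The secretory pathway list had 22 of 60 genes with a 3' UTR peak and a median of -0.55, with Sec63 enriched and Tm9sf3 and Srp72, a subunit of the signal recognition particle (-3.36), depleted. Among 47 cell cycle genes, 11 had a 3' UTR peak with a median of -1.82, and Cdk6 and the transcription factor E2f3 (lowest -3.37) were depleted. Only 3 of 75 ribosomal protein genes had a 3' UTR peak, and Rpl13a (-3.02) was depleted. Ribosomal protein genes have many near-identical processed copies, so their values are uncertain. Of the Sertoli and germ cell lists, 1 gene each had a 3' UTR peak, Clu at 0.84 and Zbtb16 at -1.98, and neither was called.

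Of 20 cardiac muscle genes, 11 had a 3' UTR peak, 3 of them enriched and none depleted, and the median of their 30 peaks was 0.66. The enriched members were Atp2a2, the calcium pump of the sarcoplasmic reticulum (3.18), Pln, phospholamban, which inhibits that pump (2.67), and Myl3, a myosin light chain (2.54). The cardiac peaks thus lay higher than the -1.08 of all 3' UTR peaks, and their genes held 3 of the 110 enriched peaks. Hspb7, which encodes a small heat shock protein of heart and muscle, is not on the list. It had 3 enriched peaks (1.90, 2.56 and 3.09), all within 119 bases of its RefSeq end, of 10 that covered 744 of 1201 bases. All 20 genes of the cardiac list had peaks in some region, 928 in total. Of 16 macrophage genes, 5 had a 3' UTR peak with a median of 0.21, and the lysozyme gene Lyz2 was enriched at 2 of 4 touching or near peaks (3.34 and 1.67). The part of cardiac or macrophage RNA in these values was not tested.

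**Figure D4:**
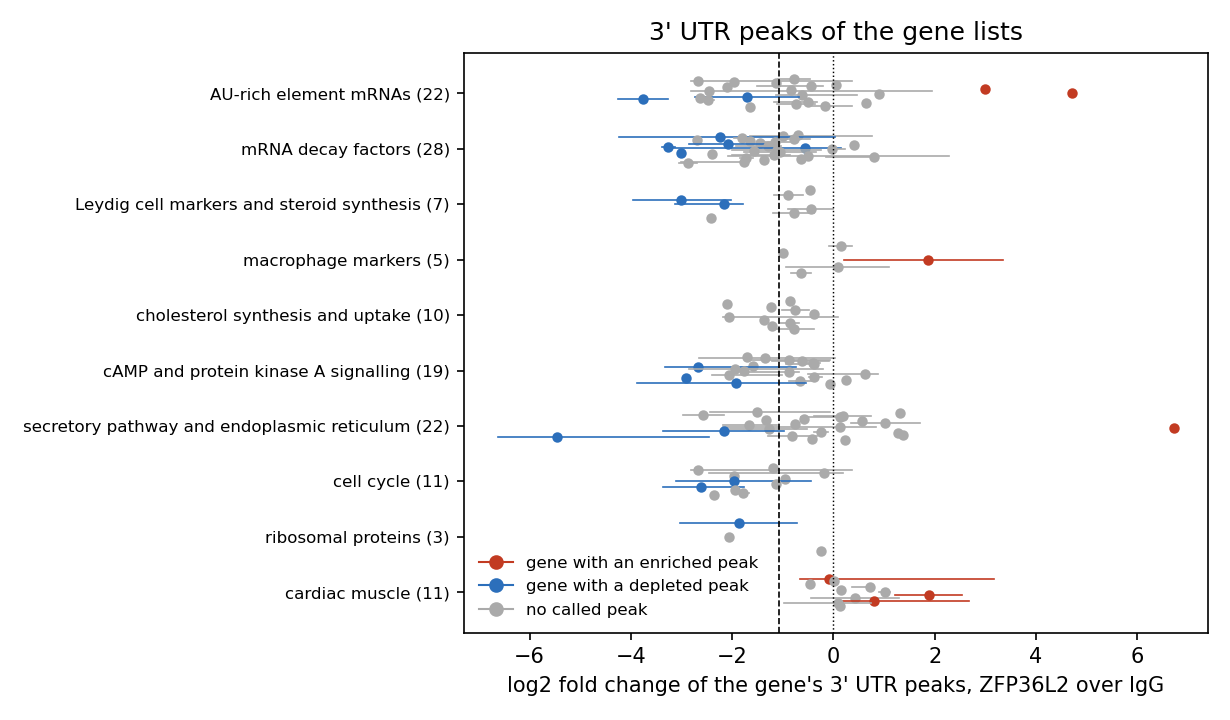
Log2 fold change of ZFP36L2 over IgG of the 3' UTR peaks of listed genes (horizontal axis) by list (vertical axis, with the number of genes that had a 3' UTR peak); each dot is a gene's median, each line runs from its lowest to its highest peak, colours mark genes with a call, the dashed line is the median of all 3' UTR peaks (-1.08) and the dotted line is 0. Most dots lie below 0, the 2 enriched mRNAs of the AU-rich list stand apart at 2.99 and 4.72, and 9 of the 11 cardiac genes lie above 0.

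Other genes with an enriched 3' UTR peak were named after their values were seen, and no test was made of what their products share. The highest values among them were in Rrp1 (4.65), Notch2, a signalling receptor (4.47), Rab5if (4.46 and 4.42) and Lrpap1 (4.43). Lamc1, a laminin chain, had 4.29, the collagen-crosslinking enzyme gene Lox had 3.92, and the collagen genes Col4a1 and Col1a1 had 3.38 and 3.25. Acaa2 of fatty acid oxidation had 4.06, and Atp5a1 of ATP synthase had 3.73 and 3.25 at 17 and 24 bases. Ogdh and Dlst, which encode subunits of the same dehydrogenase complex, had 2.86 and 2.33. Hyou1, a chaperone of the endoplasmic reticulum, had 3.93. Apoe, which encodes a lipid-carrying protein, had 2.49, the lysosomal protease gene Ctsd had 2.73 and 2.64, and Oxtr, the oxytocin receptor, had 2.54. The weakest called value was 1.59, in Lrrc58 (adjusted p 0.0091).

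Calls in the 3' UTR were set beside calls elsewhere in the same genes. Of 58 genes with an enriched 3' UTR peak and a coding peak, 16 (27.6%) also had an enriched coding peak. The share was 2.25% (4 of 178) in genes with a depleted 3' UTR peak and 6.06% (115 of 1897) in genes with 3' UTR peaks and no call there. Depleted coding peaks were found in 5.17%, 14.6% and 8.49% of the same sets. For introns, 12.8% of 47 genes with an enriched 3' UTR peak had an enriched intron peak, beside 5.37% of 149 genes with a depleted 3' UTR peak and 3.41% of 1614 genes with no 3' UTR call. Depleted intron peaks were found in 19.1%, 26.2% and 18.6% of these sets. The sets differ in size and in peaks per gene, and no test was made.

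The 3' UTR peaks were slightly longer than those of coding sequence, introns and 5' UTRs. Their median length was 39 bases (interquartile range 18 to 57, from 1 to 301), beside 35 in coding sequence, 33 in introns and 32 in 5' UTRs, and equal to the 39 of the other transcript regions. After touching peaks were merged, the median was 54 in 3' UTRs and in introns, 50 in coding sequence and 59 in the other transcript regions. Peaks over 100 bases made up 2% of 3' UTR peaks (151), 2.15% of coding and 0.409% of intron peaks. Peaks of 10 bases or fewer made up 9.58% in 3' UTRs and 12.1% of all peaks. Enriched 3' UTR peaks had a median of 59 bases (36.2 to 78), depleted ones of 34 (22.8 to 55.8) and the others of 39 (17 to 57). Over all peaks, the medians were 46, 33 and 35. With 1 enriched peak per gene, chosen by adjusted p, the median was 66 bases in 75 genes, and with 1 depleted peak per gene it was 38 in 284 genes. How the authors set the edges of peaks was not stated in the labels or the table.

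Peaks per gene were fewer in 3' UTRs than in coding sequence or introns. A gene with 3' UTR peaks had a mean of 2.2 and a median of 2 of them, and 2010 genes (58.8%) had more than 1. The share with more than 1 was 66.7% for coding sequence, 74.4% for introns and 38.5% for 5' UTRs. After touching peaks were joined, the 7537 peaks formed 5778 sites with a median of 54 bases, and 1213 genes had more than 1 site. In all, 3' UTR peaks covered 301968 bases.

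By median gap, neighbouring 3' UTR peaks lay closer together than those of coding sequence or introns, and farther apart than those of 5' UTRs. The 4118 pairs of neighbours in 1 gene had a median gap of 49 bases, beside 0 in 5' UTRs (391 pairs) and in the other transcript regions (1368 pairs), 356 in coding sequence and 1532 in introns. Gaps are genomic and can span introns and exons. The order differed by the share of peaks with a near neighbour, which was highest in introns among these 4 regions. A neighbour within 100 bases was found for 57.3% of 3' UTR peaks, 53.9% of coding, 63.1% of intron and 52.4% of 5' UTR peaks. Peaks with a touching neighbour made up 46.2%, 43.5%, 61.6% and 48%, in the same order. Gaps over 10000 bases were seen in 22 pairs (0.534%), the widest of 178973 bases in Fto.

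Touching peaks had alike fold changes, and peaks farther apart were less alike. The median absolute difference in log2 fold change was 0.34 for 1759 touching 3' UTR pairs, 0.81 for 547 pairs 1 to 100 bases apart, 0.94 for 1327 pairs 101 to 1000 bases apart and 0.97 for 485 pairs over 1000 bases apart. Pearson's r over these pairs was 0.82, 0.49, 0.37 and 0.20. The pairs share libraries and often a peak, so these are descriptions. Touching peaks have no base between them, and whether the same sequenced fragments counted in both was not tested. In introns, r was still 0.72 at 101 to 1000 bases and 0.46 beyond, and in coding sequence it was 0.45 and 0.35. Of the touching 3' UTR pairs, 13 were enriched in both and 8 in 1 alone, while 62 were depleted in both and 96 in 1 alone. None had opposite calls.

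**Figure D5:**
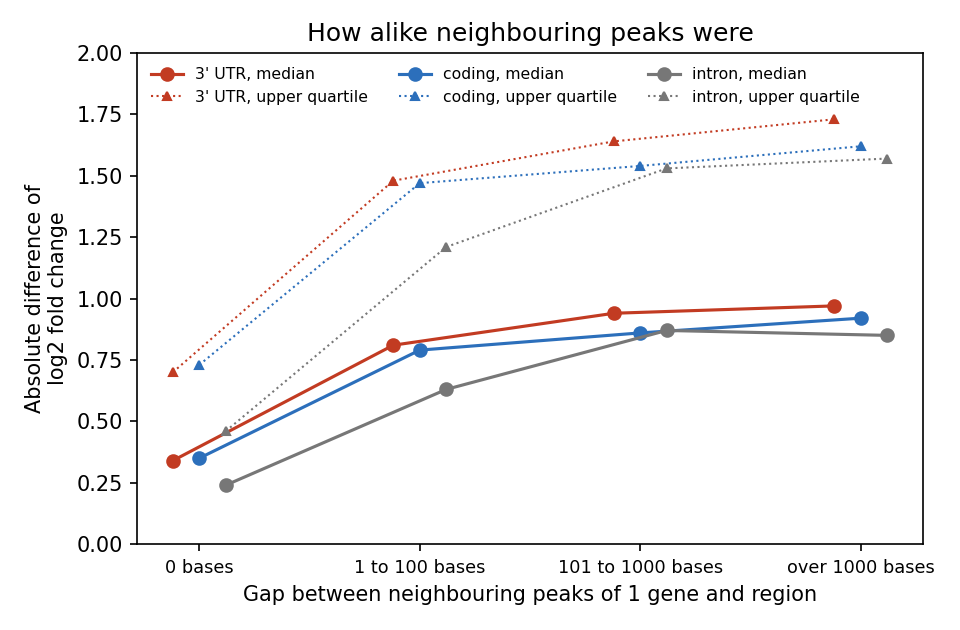
Absolute difference in log2 fold change between neighbouring peaks of 1 gene (vertical axis) by the gap between them (horizontal axis, 4 classes) in 3' UTRs, coding sequence and introns; dots joined by full lines are medians and triangles joined by dotted lines are upper quartiles over pairs. In 3' UTRs the median goes from 0.34 for touching pairs to 0.81 within 100 bases and 0.97 over 1000 bases.

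At the stop codon, 85 genes had a 3' UTR peak that touched a coding peak, in 82 of them with the 3' UTR peak downstream. Their fold changes differed by a median of 0.36 on the log2 scale with a Pearson r of 0.87, close to the values of touching peaks within the 3' UTR. The 3' UTR side was higher in 35 pairs and lower in 50. Both sides were enriched in Ctsb (2.77 in the 3' UTR and 2.01 in coding sequence) and in Xirp1, an actin-binding protein of heart and muscle (3.50 and 3.45). Both sides were depleted in 5 genes, among them Fxyd6 (-3.00 and -2.82). In Postn the 3' UTR side alone was enriched (2.82, with 1.08 in coding sequence), and in Clu the coding side alone was (2.34, with 0.84 in the 3' UTR). No pair had opposite calls.

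Distance to the end of the gene was taken from the RefSeq annotation of GRCm38.p6, the build of mm10. Of 3409 genes with 1 name, 3395 (99.6%) matched a RefSeq symbol, and 7260 of the 7483 peaks of matched genes (97%) lay inside the gene. Peaks lay a median of 1161 bases before the annotated 3' end (interquartile range 478 to 2299), and 26% lay within 500 bases of it. Of 108 enriched peaks, 41 (38%) lay within 500 bases, with a median distance of 830 bases. The share was 26.8% of depleted peaks and 25.7% of those not called. With 1 peak per gene by adjusted p, it was 42.5% of 73 enriched, 27.5% of 269 depleted and 31% of 3203 uncalled peaks. Without the 5 genes richest in enriched peaks it was 44.4% of 81. Examples near the end were Cox8a (112 and 184 bases), Bsg (105) and the downstream enriched peak of Lyz2 (126), while Hipk2 had its peaks 7211 to 10573 bases before the RefSeq end.

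Enriched 3' UTR peaks were found on every chromosome with 3' UTR peaks except chromosome 13, which had 255 peaks and none enriched. The highest share was on chromosome 10, with 17 of 381 peaks (4.46%), of which 11 belonged to Eif4ebp2. Depleted peaks were found on all of them, with shares from 2.62% to 7.39%.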

How the data were processed

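MLTC-1 eCLIP libraries of 4 groups were compared by the authors: ZFP36L2 IP (2 libraries), its inputs (2), IgG IP (1) and its input (1). The submitters' processing notes list build mm10, DESeq2 1.34.0, STAR 2.7.7a, cutadapt 3.2 and UMI-tools 1.1.1, with no roles. Peak calling, normalization, testing and the use of inputs were not given in the sources used here. Each peak has 1 row in the deposited table, with a log2 fold change. The authors deposited its p-value and adjusted p-value as −log10 values, which were converted back here. With no counts, depth per library is unknown and no interval can be given. If the p-values measure a spread between libraries, it may be technical.

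Peaks were taken by their deposited region, and a gene is the set of names in a row. Starts were converted to count from 1. The gap is the number of bases between neighbours of 1 gene, strand and region. Counting, gap and merging steps were tested on simulated peaks and ran in Python 3.11.15 with pandas 2.3.3. The members and gene lists were chosen with earlier results of these data known. Named genes are the 10 by fold change and 10 by adjusted p among enriched 3' UTR peaks, 8 of each among depleted ones, the 5 with most enriched, depleted or any 3' UTR peaks, those with both calls, up to 6 called members per list and a set of always-named genes. Some items that these rules name are not reported here, and they were taken out of the list counts after the values were seen. The remaining enriched genes were named after their values were seen. Alternatives were other thresholds, centring, merging, 1 peak per gene, unique gene names and leaving out the cardiac list. AU-rich motifs were not counted, because no genome was used.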

Additional observations from a re-analysis of the deposited data

How the results depend on the processing

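The 110 enriched 3' UTR peaks became 73 with 1 peak per gene. The 364 depleted ones became 219 at an adjusted p under 0.01 and 282 with 1 peak per gene. Other settings gave 91 to 110 enriched and 302 to 364 depleted peaks. Among these, leaving out the 20 genes of the cardiac muscle list gave 107 and 364. Genes of heart and muscle outside that list, such as Hspb7 and Xirp1, stayed in. Leaving out the 5 genes with most calls, an alternative chosen after seeing the data, gave 83 and 345. The median log2 fold change of -1.08 was -0.02 after centring on all peaks (median -1.06) and -1.13 over genes. The share with a near neighbour, 57.3% within 100 bases, was 46.2% for touching peaks, 53% within 50 bases and 62.4% within 200. The median length of 39 bases was 54 after touching peaks were merged. The 2010 genes with more than 1 peak became 1213 after touching peaks were merged and 1055 with peaks within 100 bases counted as 1. The lists held 24 called genes, 18 of them at an adjusted p under 0.01. Enriched peaks made up 20.6% to 29.4% of calls over the planned settings. Centring kept the deposited adjusted p, so that setting could add no call.

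No paired analysis was possible because the table has no library columns. Leaving out replicates was not run either. The alternatives for AU-rich motifs were not run. With depth unknown, a peak that was not called is not shown to be equal in both arms.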
